A study of Homo sapiens with 9 samples.

Results

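The cytosolic ribosomal protein genes encode the protein parts of the ribosome outside mitochondria. They were taken as the protein-coding genes whose symbols begin with RPL or RPS and a number, together with RPSA, RPLP0, RPLP1, RPLP2 and FAU. RPS6K kinases and pseudogenes were left out. Of the 63677 gene IDs counted, 78 were canonical members, 46 of the large and 32 of the small subunit. Apart from these stood 9 paralogs, among them RPL39L, and 3 readthrough genes and RPS19BP1, which encodes a binding partner and no ribosomal protein. RNA was measured in cultures of K562, an erythroleukaemia line derived from a patient with chronic myeloid leukaemia. There were 9 libraries. Besides the parental line, whose SRSF2 is wild type, 4 came from CRISPR clones that kept wild-type SRSF2, named W19, W33, W36, W42 and called WT clones here. The other 4 came from CRISPR clones P9, P15, P22 and P38, which carry mutant SRSF2 P95H. SRSF2 encodes a splicing factor, and the series was made to examine splicing. The counts used here are per gene and cannot show the substitution itself. Each clone is 1 library, and the labels do not say whether the clones of a group came from separate edits, so p-values measure only the spread between clones.

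Ribosomal proteins assemble with ribosomal RNA in the nucleolus, and the subunits are made in matched amounts. Their messenger RNAs belong to the terminal oligopyrimidine class. Such messages begin with a C followed by a run of pyrimidines, through which signalling by mTOR sets their translation. Many of these genes carry small nucleolar RNAs in their introns. Red cell precursors are sensitive to a shortage: loss of a copy of RPS19, RPL5, RPL11, RPS26 or RPS24 is a cause of Diamond-Blackfan anaemia, and RPS14 lies in the region deleted in the 5q- syndrome. RPL5 and RPL11 also bind the p53 regulator MDM2 when ribosome assembly fails.

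Promoter sequences were taken from RefSeq (GRCh38.p14) by symbol, which matched 63 of the 78 canonical members. At the annotated start, 47 of the 63 genes had a C followed by at least 4 further bases that were all C or T (74.6%), against 4.07% of all 35116 promoter entries of the same length. A run of 8 or more C or T lay over the 5 bases on either side of the start in 50 of 63 members (79.4%) and in 11.2% of all entries. The letters CTTTC on the gene's strand within 20 bases of the start were found in 35 members (55.6%) and in 5.75% of entries. The letters CCGGAAG, the core of sites for ETS factors, were in 22 members (34.9%) and 10.3% of entries, on either strand of the 300-base entry. AAGATGGC, the core of sites for YY1, was in 7 members (11.1%) and 2.89% of entries, also on either strand. A member with several entries was counted as having a motif when any entry held it. In the shares over all entries each entry was counted singly, so the units differ in a way that favours the members. Below are stretches from 60 bases before the start to 20 after it. They are shown because the results turn on these members, or because they set a paralog beside its partner. Capitals mark the longest run of C and T over the 5 bases on either side of the start where it reached 5 bases. Where a gene has several starts, the one with the longest run is shown. RPL12 lies at chr9:127451387-127451466, minus strand, RPL36A at chrX:101390951-101391030, plus strand, and RPL39 at chrX:119791611-119791690, minus strand. RPL11 lies at chr1:23691746-23691825, plus strand, RPL22 at chr1:6199576-6199655, minus strand, and RPS19 at chr19:41860195-41860274, plus strand. RPS24 lies at chr10:78033803-78033882, plus strand. The paralog RPL22L1 lies at chr3:170870176-170870255, minus strand, and the paralog RPL26L1 at chr5:172958669-172958748, plus strand.
RPL12: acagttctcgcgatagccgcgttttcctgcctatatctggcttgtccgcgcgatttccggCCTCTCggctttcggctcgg
RPL36A: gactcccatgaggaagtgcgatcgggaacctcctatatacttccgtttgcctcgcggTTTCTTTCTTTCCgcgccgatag
RPL39: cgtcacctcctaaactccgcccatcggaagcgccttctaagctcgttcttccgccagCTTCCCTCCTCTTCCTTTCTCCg
RPL11: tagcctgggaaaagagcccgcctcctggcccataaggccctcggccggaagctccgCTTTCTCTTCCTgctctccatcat
RPL22: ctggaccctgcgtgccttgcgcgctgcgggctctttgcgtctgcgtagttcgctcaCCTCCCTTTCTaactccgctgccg
RPS19: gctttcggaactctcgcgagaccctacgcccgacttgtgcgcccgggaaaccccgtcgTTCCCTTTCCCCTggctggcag
RPS24: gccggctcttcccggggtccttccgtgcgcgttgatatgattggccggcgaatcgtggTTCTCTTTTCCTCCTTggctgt
RPL22L1: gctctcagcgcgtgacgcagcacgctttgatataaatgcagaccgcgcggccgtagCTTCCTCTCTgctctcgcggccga
RPL26L1: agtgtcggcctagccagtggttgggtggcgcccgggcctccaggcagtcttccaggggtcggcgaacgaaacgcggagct
The canonical members shown and RPL22L1 carry the run at the start, from 6 bases in RPL12 to 22 in RPL39, whereas the run of RPL26L1 was 2 bases long. These runs are descriptions of the reference sequence and were not measured in the clones.

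The libraries held 24546255 (W33) to 35477328 (parental) counts in genes, so that 3 counts, taken as the floor, stood for 0.0846 to 0.122 CPM (reads scaled to a common library total), which covers counting error only. All 10 K562 markers looked up were above 1 CPM in at least 1 library, and their summed level was 3013 to 7524 CPM. Of 12 markers of lymphoid cells, fibroblasts and monocytes the sums were 4.63 to 33.1, 1.16 to 10.5 and 9.88 to 38.8 CPM. W33 stood apart from the other WT clones across the transcriptome, and values without it are given beside the results that it moved most.

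The ribosomal protein genes took 4.697% ± 0.815 (SD, n = 4) of all counts in WT clones and 4.57% ± 0.411 (n = 4) in P95H clones. The share was 5.09% in the parental library. Among WT clones it was 4.25% in W19, 5.89% in W33, 4.52% in W36 and 4.12% in W42, so W33 lay above every other library. Among P95H clones P9 had 4.05%, P15 4.52%, P22 4.65% and P38 5.05%. Both groups overlapped, and without W33 the WT share was 4.299% ± 0.204 (n = 3). In this measure a smaller share of cells of a type and less RNA per cell cannot be told apart. Large subunit genes had 2.73% ± 0.470 of counts in WT and 2.67% ± 0.224 in P95H clones, and small subunit genes 1.97% ± 0.345 and 1.90% ± 0.198. The ratio of large to small subunit counts lay between 1.35 (lowest) and 1.498 (highest) in the 9 libraries.

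**Figure D1:**
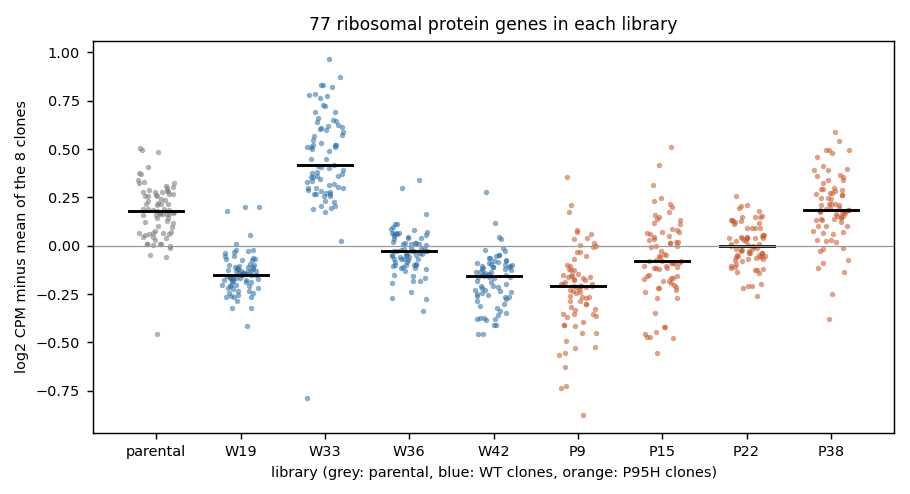
Each point is 1 of 77 canonical ribosomal protein genes in 1 library. The vertical axis is its log2 CPM minus its mean over the 8 clones, and the black line is the median of the genes. The median was 0.42 in W33 and 0.19 in P38, the highest of the 8 clones, and -0.21 in P9, the lowest.

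Counted reads per kilobase of transcript differed widely between members. RPL11 (ENSG00000142676), which binds the 5S ribosomal RNA, was the highest at 2513 CPM per kilobase over the 9 libraries. RPS19, a small subunit head protein, followed at 2377, and RPS24 at 2319. The lowest were RPS26, which sits at the messenger RNA exit, at 19.6, RPL17 at 20.9 and RPS10 at 22.2 CPM per kilobase. Low values went with many processed pseudogenes. The median was 1235 CPM per kilobase for the 38 members with 0 to 9 annotated pseudogenes, 463 for the 23 with 10 to 19 and 245 for the 16 with 20 or more. Spearman's rho between level and pseudogene number over the 77 genes was -0.60, a description over genes that share libraries. Reads that align more than once were left out of the counts, so levels of members with near-identical copies can be too low. RPS26 has 30 such pseudogenes, RPL17 26 and RPS10 11. Of the 78 canonical members, 77 passed the filter on low counts. RPL17, RPL36A and RPS10 also share exons with readthrough genes that were listed at 0, and reads in shared exons may have been dropped as ambiguous. RPS3A shares 11.2% of its exon bases with SH3D19 on the opposite strand (mean count 7437), and the library kit does not mark strand, so its counts are uncertain. Other members overlap counted genes too. Among them, FAU shares 21.6% of its exon bases with SYVN1 (mean count 1703) and 15.3% with MRPL49 (2617). RPL9 shares 7.2% with LIAS (1459).

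P95H clones were compared with WT clones to ask whether these genes differ with the SRSF2 genotype. None of the 77 members tested passed an adjusted p of 0.05 in edgeR's quasi-likelihood test, as for all 18173 genes (0.0% called). At an unadjusted p under 0.05 stood 2 members that were higher (RPL36A and RPL12), against 6.07% of all genes tested, and 1 that was lower (RPL37), against 5.65%. The median log2 difference of the members was -0.03, with 29 above 0 and 48 below, beside a median of 0.01 over all genes tested. It was -0.03 in the large and -0.08 in the small subunit. Within each class of coding length that held members, their median was above that of other coding genes (-0.08 beside -0.12 under 500 bases). Within each class of transcript GC content it was below (-0.08 beside 0.04 under 45%). DESeq2 called 0 of the members among 261 genes (1.44%), and limma-voom with quality weights 0 among 59 (0.325%). With limma-voom the median of the members was 0.08 on the same 8 clones, with 57 above 0 and 20 below.

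In edgeR, leaving out W33 also changed the sign of the members' median. Over the 7 remaining clones it was 0.11, with 62 members above 0 and 15 below, beside 0.01 for all 18669 genes tested. Again 0 members and 0 genes passed the adjusted threshold (0.0% called). At an unadjusted p under 0.05 there were 7 members higher, against 7.26% of all genes, and 1 lower, against 5.53%. The groups did not overlap for 5 members, all higher in P95H clones (RPL12, RPL28, RPL36A, RPS15A and RPS6), against 7.05% of all genes. With all 8 clones this held for RPL36A alone, against 3.94% of all genes. Leaving out P38 instead gave a median of -0.12 and leaving out P9 gave 0.00, with 39 members above 0 and 38 below. The 28 members that hold an annotated small nucleolar RNA had a median of 0.01 over 8 clones and the 49 others -0.08. Without W33 these were 0.15 and 0.09.

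**Figure D2:**
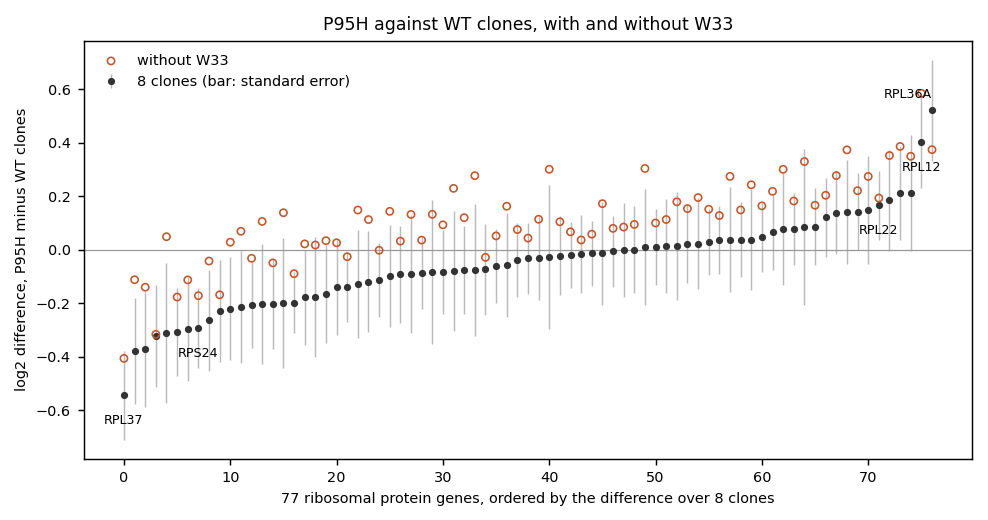
Log2 differences of P95H minus WT clones for 77 ribosomal protein genes, ordered from left to right. Filled points and bars give the value over 8 clones with its standard error, open circles the value without W33. Most open circles lie above the filled points, the clearest exception being RPL36A at the right, which falls from 0.52 to 0.37.

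The members with the lowest p in each direction are described next, beginning with those of the large subunit. RPL37, a zinc finger protein of the large subunit, measured 1024, 1407, 1096 and 846 CPM in W19, W33, W36 and W42, and 651, 666, 910 and 747 CPM in P9, P15, P22 and P38. The P95H clones were lower except that P22 lay above W42. Its log2 difference was -0.54 (SE 0.17, edgeR adjusted p = 0.320), and -0.41 without W33 (adjusted p = 0.310). The parental library held 1256 CPM. RPL36A, which lies at the exit site for transfer RNA, had the opposite sign. It measured 14.2, 9.74, 16.6 and 16.5 CPM in W19, W33, W36 and W42, and 21.5, 16.7, 20.1 and 23.1 CPM in P9, P15, P22 and P38. All P95H clones lay above all WT clones, P15 by a margin of under 1 CPM. The log2 difference was 0.52 (SE 0.19, edgeR adjusted p = 0.356). RPL36A has 19 pseudogenes and 12.3 CPM in the parental library, below every clone but W33.

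RPL12, a protein at the base of the stalk where elongation factors bind, measured 37.9, 61.5, 41.8 and 38.05 CPM in W19, W33, W36 and W42. It measured 57.2, 51.1, 56.1 and 70.6 CPM in P9, P15, P22 and P38. W33 overlapped the P95H clones and the other 3 WT clones did not. The log2 difference was 0.40 (SE 0.17, adjusted p = 0.409) with W33 and 0.58 (SE 0.12, adjusted p = 0.211) without it, both from edgeR. The parental library, at 62.5 CPM, lay with W33 and the P95H clones. RPL12 has 50 pseudogenes, so these counts come from the part of its reads that align once.

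With all 8 clones, differences of the other named members were within 2 standard errors of 0. RPL22, an RNA-binding protein not needed for translation itself, had 339 ± 17.2 CPM in WT and 378 ± 62.7 CPM in P95H clones (SD, n = 4 each). RPL13A, known outside the ribosome as an inhibitor of translation of certain messages, had 485 ± 121 and 557 ± 91.5 CPM. Its log2 difference was 0.21 (SE 0.18), and without W33 it was 0.39 (SE 0.14, edgeR adjusted p = 0.312). RPS3A measured 253 ± 30.5 and 277 ± 51.9 CPM. On the other side stood RPS24, whose last coding exon is alternatively spliced, with 1454 ± 249 CPM in WT and 1178 ± 202 CPM in P95H clones. RPL35, near the exit of the peptide tunnel, had 498 ± 175 and 380 ± 29.03 CPM. RPL41, one of the smallest proteins of the cell, had 159 ± 30.7 and 127 ± 22.8 CPM, and FAU, made as a fusion of a ubiquitin-like protein with a small subunit protein, 193 ± 60.04 and 148 ± 31.5 CPM. The 4 log2 differences ran from -0.38 for RPL35 to -0.29 for RPS24, with edgeR adjusted p of 0.476 or more, and without W33 they were closer to 0, between -0.18 and -0.11.

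Of the genes tied to anaemia, RPS24 is described above. RPS19 had 1291 ± 480 CPM in WT and 1102 ± 102 CPM in P95H clones (SD, n = 4 each), a log2 difference of -0.21 (SE 0.21) that became 0.07 (SE 0.10) without W33. RPL5 had 507 ± 66.3 and 503 ± 121 CPM, and RPL11 2180 ± 197 and 2141 ± 421 CPM. RPS26 had 21.9 ± 4.16 and 22.1 ± 2.01 CPM. RPS14 had 1113 ± 228 and 1081 ± 172 CPM. The group means of the last 4 differed by less than 1 SD of either group. Relative to the mean, the widest spreads of these 5 in P95H clones were those of RPL5 and RPL11, in which P9 was lowest, with 345 and 1566 CPM.

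The lowest p of the family in this comparison belonged to a paralog. RPL39L (ENSG00000163923, chromosome 3), a copy of RPL39 known for its expression in testis and tumour cells, measured 12.4, 14.1, 13.7 and 15.01 CPM in W19, W33, W36 and W42. It measured 6.43, 8.43, 8.57 and 6.71 CPM in P9, P15, P22 and P38, and 15.2 CPM in the parental library. Every P95H clone lay below every WT clone and the parental library. Such separation of P95H from WT clones is not rare: in the opposite direction it held for 3.94% of all genes tested. The share for lower values is not given here. On the log2 scale P95H minus WT came to -0.86 (SE 0.15, edgeR adjusted p = 0.220), and to -0.86 without W33 (adjusted p = 0.205). DESeq2 gave an adjusted p of 3.96e-05 and limma-voom with quality weights 0.0360, so that the call depended on the tool. Across the settings and left-out clones tried, the log2 difference stayed between -0.94 and -0.80. RPL39L was known from earlier results of these data when it was listed, and its difference is no independent evidence.

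Its partner RPL39, which lines the peptide exit tunnel, measured 33.8, 53.6, 32.3 and 29.9 CPM in WT clones, in the same order, and 20.9, 29.7, 40.2 and 49.0 CPM in P95H clones. These overlapped, with a log2 difference of -0.08 (SE 0.27, edgeR adjusted p = 0.922), and 0.13 (SE 0.26) without W33. RPL26L1 measured 24.6, 39.99, 25.1 and 27.0 CPM in WT and 19.4, 22.1, 22.3 and 25.2 CPM in P95H clones, so only P38 overlapped. The log2 difference was -0.38 (SE 0.17, adjusted p = 0.428), and without W33 it was -0.20 (adjusted p = 0.494). RPL36AL, a close copy of RPL36A, had 202 ± 63.2 CPM in WT and 162 ± 12.9 CPM in P95H clones (SD, n = 4 each), with a log2 difference of -0.30 that came to -0.06 (SE 0.09) without W33. RPL22L1 had 29.6 ± 8.77 and 26.6 ± 6.19 CPM beside its partner RPL22, and its log2 difference was -0.14 (SE 0.22) with W33 and 0.08 (SE 0.18) without it. RPS27L, a target of p53, had 81.0 ± 12.5 and 74.6 ± 6.02 CPM, and its partner RPS27 18.7 ± 2.27 and 20.1 ± 3.23 CPM, from reads that align once. RPL7L1 was the steadiest of all, with 378 ± 20.7 and 379 ± 23.0 CPM and a log2 difference of 0.01 (SE 0.09). The other 3 paralogs had means under 1 CPM and are not described.

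**Figure D3:**
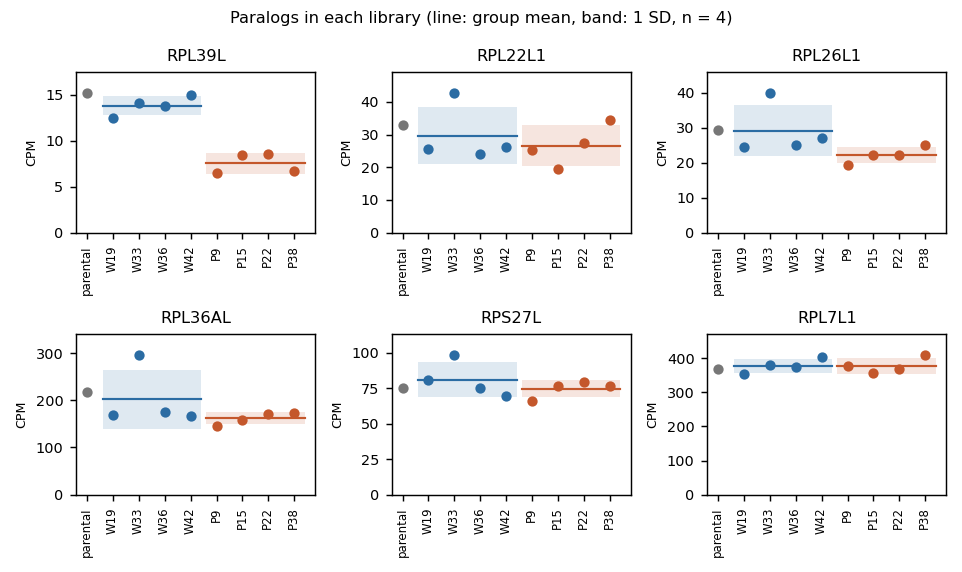
CPM of 6 paralogs in each library, with the group mean as a line and 1 SD as a band (n = 4). RPL39L lies between 6.43 and 8.57 CPM in P95H clones and between 12.4 and 15.01 CPM in WT clones. For RPL22L1, RPL26L1, RPL36AL and RPS27L the highest WT clone is W33.

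The parental library was set against the WT clones in 1 model of the 9 libraries, where its own unknown spread is taken to equal that of the clones. No member was called, and 1 of 20636 genes was (0.00485%). At an unadjusted p under 0.05 there were 0 members, against 1.72% of all genes. Without W33 there were 11 members higher at that level, against 2.92% of all genes, and still none passed adjustment. The median log2 difference of the members was 0.11, with 65 of 77 above 0, beside -0.02 over all genes, and without W33 it was 0.28 with 76 above 0. The members with the lowest p were RPL17 at 0.48 (SE 0.22), RPL22 at 0.37 (SE 0.20) and RPL12 at 0.48 (SE 0.27). RPL7 followed at 0.45 (SE 0.27) and RPS3A at 0.32 (SE 0.23). On the lower side were RPL36A at -0.22 (SE 0.30), RPS20 at -0.12 (SE 0.30), RPS15 at -0.16 (SE 0.43) and RPL18 at -0.08 (SE 0.37). All of these lower values were under 1 standard error, so the parental library could not be told from the WT clones in them.

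The W33 library held more ribosomal protein messages than those of the other WT clones. In the tests of single clones, the unknown spread of the lone library is taken to equal that of the others. A difference of the clone W33 cannot be told apart from a difference of its library. Of the 77 members, 25 were higher and 0 lower in edgeR's quasi-likelihood test, where 5.67% of 20636 genes were called higher, 5.21% lower and 10.9% in either direction. The median log2 difference was 0.56, beside 0.03 over all genes, and 76 of 77 members were above 0. It was 0.51 in the large subunit, with 15 of 46 called, and 0.56 in the small subunit, with 10 of 31. Summed levels of marker genes of other cell types also lay above those of the other WT clones in W33. The summed level of the 5 lymphoid markers was 33.1 CPM in W33 and 13.3 to 17.1 CPM in the other WT clones, with MS4A1 at 0 in every library. The 4 fibroblast markers summed to 10.5 against 2.76 to 6.19 CPM, with LUM at 0 in every library, and the 3 monocyte markers to 19.97 against 11.3 to 15.2 CPM. Under 1 CPM in every library were 2 lymphoid, 3 fibroblast and 2 monocyte markers, so each sum rested on few genes. Of the 2 monocyte markers tested, 1 was above 0 in W33 and 1 below. In the monocyte sum the parental library (38.8 CPM) and a P95H clone (32.6 CPM) lay above W33, but no library did in the lymphoid and fibroblast sums. No lymphoid, fibroblast or monocyte marker passed adjustment. The 10 K562 markers summed to 5396 against 3333 to 4316 CPM, but singly 6 of them were above 0 in W33 and 4 below. Of the 10, GATA1 and KLF1, erythroid transcription factors, were called higher. The part of these markers in the result was not tested. RPS15, a small subunit head protein, was the highest at 1.12 (SE 0.20), with 418 CPM in W33 and 168 to 209 CPM in the other WT clones. RPL28 held 1526 CPM in W33 against 757, 750 and 625 CPM in W19, W36 and W42 (log2 1.10, SE 0.16, adjusted p = 0.0153). RPL8, which lies near the site of peptide bond formation, held 3075 CPM against 1679, 1721 and 1509 CPM (log2 0.91, SE 0.13, adjusted p = 0.0153). W33 was far above the narrow range of the other 3 clones in each of these genes.

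RPL18 measured 1425 CPM in W33 against 644 to 759 CPM in the other WT clones, and RPL9, at the base of the stalk, 137 against 64.0 to 73.3 CPM. The log2 differences came to 0.995 (SE 0.147) for RPL18 and 0.996 (SE 0.146) for RPL9. RPL35 held 758 against 384 to 446 CPM, and RPS19 2002 against 971 to 1143 CPM. Members that did not pass included RPL11 at 0.22 (SE 0.23), RPL5 at 0.34 (SE 0.27) and RPS14 at 0.53 (SE 0.18, adjusted p = 0.0916). RPS26 was at 0.49 (SE 0.16, adjusted p = 0.0833). RPL36A was the single member below 0, at -0.69 (SE 0.22, adjusted p = 0.0747), with 9.74 CPM in W33 against 14.2 to 16.6 CPM. DESeq2 did call it lower (adjusted p = 0.0248). The paralog RPL36AL rose instead, with 296 CPM in W33 against 166 to 175 CPM (log2 0.80, SE 0.12, adjusted p = 0.0158), and RPL39L stood at 0.03 (SE 0.23).

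The members' excess in W33 ran along with composition. Other coding genes with transcripts under 45% GC had a median of -0.34 in W33 and those of 60% GC or more 0.49, while the members in these classes had 0.46 (14 genes) and 1.05 (5 genes). Among other coding genes the median also ran from 0.37 for coding lengths under 500 bases to -0.27 for 3000 bases or more. The 47 members with coding lengths under 500 bases had 0.60. Within each of the 5 GC classes and each of the 3 length classes that held members, their median was higher than that of the other genes. Spearman's rho between the log2 difference and GC content over the 77 members was 0.52, a description over genes that share the library. After removal of a GC and length trend from each library, 7 members were called, where 1.96% of genes were called higher, and the median was 0.47 with 76 above 0. The calls also rested on the other WT clones. Without W19 there were 10 members called, where 301 of 20538 genes were called higher. Without W36 or without W42 there were 0, as for all genes, although the differences stayed as large (RPL8 0.95 and 0.86). DESeq2 called 34 members higher and 1 lower, where it called 8.01% of genes higher, and limma-voom 31 higher, where it called 9.9%.

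**Figure D4:**
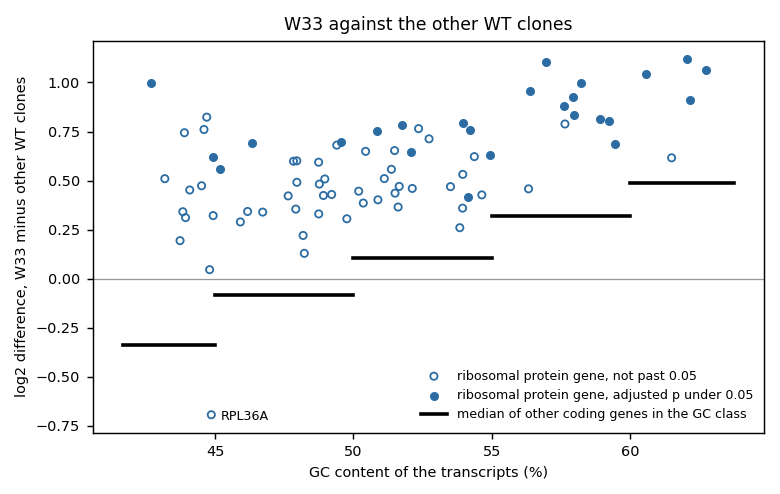
Log2 difference of W33 minus the other WT clones (vertical axis) against the GC content of the transcripts in percent (horizontal axis), for 77 ribosomal protein genes. Filled points passed an adjusted p of 0.05, and black lines give the median of other coding genes in each GC class, from -0.34 to 0.49. All members but RPL36A lie above 0, and most lie above the line of their class.

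In no other clone was a member called. With W33 among the reference clones, the medians were -0.26 in W19, -0.09 in W36 and -0.30 in W42, and with it left out they were -0.05, 0.12 and -0.07. W42 had 4 of 20636 genes called (0.0194%), and W19 and W36 had 0 (0.0%), with 60 higher and 62 lower at an unadjusted p under 0.05 in W19, and 42 and 92 in W36. Of the P95H clones, P9 had a median of -0.27, P15 of -0.10, P22 of 0.03 and P38 of 0.30, with 6, 27, 44 and 71 of the 77 members above 0. The share of genes called was 0.0% in P9 and P38, 0.00485% in P15 and 0.426% in P22. Without W33 the fits called 254 genes in P22, 7 in P15, 1 in P9 and 0 in P38. P9 and P38 thus stood at the opposite ends of their group in the level of the whole family, and no member passed the test at either end. At an unadjusted p under 0.05, P9 had 9 members lower, against 2.61% of all genes. Without W33, which enters this fit through the spread shared by all libraries, there were 22, against 5.12%. The lowest was RPL26, a large subunit protein that binds p53 messenger RNA, at -1.20 (unadjusted p = 0.0115, edgeR adjusted p = 1). P38 had 3 higher, against 0.838%. They were RPL27 at 0.43, RPS18 at 0.63 and RPS3A at 0.47. Without W33 there were 24, against 2.4%. The medians of P9 and P38 were then -0.27 and 0.29, close to those with W33, and no member passed adjustment.

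On chromosome 1 in P9 and chromosome 11 in P15, members had differences like those of the genes around them. Each member was set beside the median of 50 neighbouring genes on its chromosome that are no members. In P9, on chromosome 1, RPL5 was at -0.68 with its neighbours at -0.46, RPL11 at -0.57 beside -0.39, and RPL22 at -0.45 beside -0.38. In these 3 genes the clone was low together with the genes around them. RPS27, on the same chromosome, was at -0.29 and its neighbours at -0.01. In P15, on chromosome 11, RPLP2, an acidic stalk protein, was at 0.68 with its neighbours at 0.63. RPL27A was at 0.49 beside 0.46 and RPS13 at 0.26 beside 0.35. On the same chromosome RPS3, at the messenger RNA entry, was at -0.59 beside -0.48, RPS25 at -0.55 beside -0.62 and FAU at -0.51 beside -0.42. None of these differences passed adjustment, and DNA copy number was not tested. The lowest P95H values of RPL5 and RPL11 were those of P9, and the lowest of FAU was that of P15 (112 CPM).

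**Figure D5:**
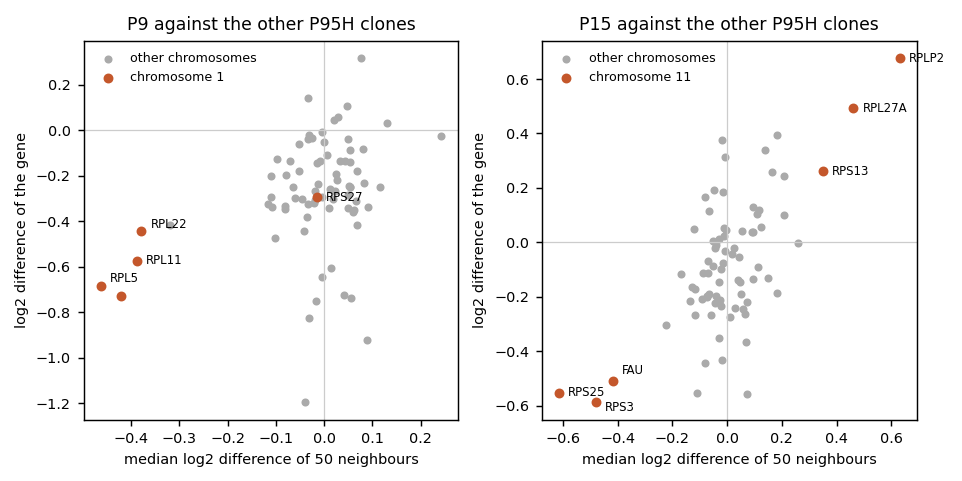
Log2 difference of each member (vertical axis) against the median log2 difference of 50 neighbouring genes (horizontal axis), for P9 on the left and P15 on the right, each minus the other P95H clones. Orange points are members on chromosome 1 in P9 and on chromosome 11 in P15, with the genes named in the text labelled. The chromosome 11 members lie near the diagonal from RPS25 (-0.55) to RPLP2 (0.68).

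Other genes of translation were counted in the same test of P95H against WT clones, and 0 of them passed adjustment (0.0% of all genes). Of 21 elongation factors and other terminal oligopyrimidine messages, 13 were above 0 with a median of 0.12, and 19 with a median of 0.16 without W33. TPT1, which encodes a growth-related calcium-binding protein, had 1172 ± 42.4 CPM in WT and 1430 ± 110 CPM in P95H clones (SD, n = 4 each, log2 0.30, SE 0.09, adjusted p = 0.321). NAP1L1, a histone chaperone, stood at 0.29 and PABPC1, which binds the poly(A) tail, at 0.24. RACK1, which also encodes a ribosomal component but falls outside the naming rule, stood at -0.01 in P95H clones and at 0.19 without W33. In W33 it was higher, by 0.70 (edgeR adjusted p = 0.0189).

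Of 31 initiation factors 12 were above 0 (median -0.06), and 15 without W33 (median -0.004). EIF4A2, a helicase, was at 0.47, EIF2B3, part of the exchange factor for eIF2, at -0.49, and EIF3I at -0.26. Ribosome biogenesis factors were below 0 in 53 of 64 cases (median -0.14), also without W33 (53 of 64, median -0.08). Over all genes tested, 8699 of 18173 were below 0, and 8940 of 18669 without W33. RPF2, which brings the 5S particle into the large subunit, had 133 ± 8.66 CPM in WT and 101.1 ± 12.4 CPM in P95H clones (SD, n = 4 each, log2 -0.39, SE 0.11, adjusted p = 0.318). PES1 was at -0.44 (-0.28 without W33) and EBNA1BP2 at -0.41 (-0.29). The median of these factors was thus below 0 with and without W33, whereas the median of the canonical members changed sign. Single P95H clones against the others of their group ranged more widely, from -0.23 in P15 (53 of 64 below 0) to 0.21 in P38 (58 of 64 above 0). The group medians of these factors lay within that range.

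Mitochondrial ribosomal proteins, which form a separate ribosome, were below 0 in 66 of 75 cases (median -0.20), and in 53 of 75 without W33 (median -0.09). MRPL36 had 57.3 ± 11.4 CPM in WT and 41.4 ± 5.03 CPM in P95H clones (log2 -0.46, SE 0.15, edgeR adjusted p = 0.335), with MRPL33 at -0.38 and MRPL11 at -0.49. In W33 these genes were high like the cytosolic ones, with 25 of 75 called higher and a median of 0.44. Genes of translation signalling had 14 of 22 above 0 (median 0.12), and 12 without W33 (median 0.10). PDCD4, an inhibitor of the helicase eIF4A, had 35.0 ± 4.55 CPM in WT and 54.3 ± 7.73 CPM in P95H clones (SD, n = 4 each, log2 0.64, SE 0.14, adjusted p = 0.282). EEF2K, the kinase that restrains elongation, was at 0.48 and TSC1, an inhibitor of mTOR signalling, at 0.28. DESeq2 called PDCD4 (adjusted p = 0.00747) and EEF2K (adjusted p = 0.0364) and no other gene of these 5 lists. The lists held 21, 31, 64, 75 and 22 tested genes, and DESeq2 called 1.44% of all genes, so these 2 calls do not set the lists apart.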

How the data were processed

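RNA-seq of 9 K562 libraries was used: polyadenylated RNA, TruSeq RNA kit, HiSeq2000, per the labels' protocols. The deposited values are unnormalized read counts for Ensembl gene IDs (release 75, per the file labels). Reads were handled with bcl2fastq, aligned with TopHat2 2.0.4 and counted with HTSeq 0.6.1p1 on GRCh37, the roles being understood from the tools named in the submitters' processing notes. Their settings are not known. The 5 summary lines that end each list entered neither library sizes nor tests. Among them are reads aligned more than once (5.06 to 6.06% of reads listed).

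Symbols, biotypes, chromosomes, gene order, transcript lengths and GC content came from GENCODE 29 (GRCh38) by gene ID. Length and GC are medians over a gene's protein-coding transcripts. Coding lengths are those of the principal transcripts. The counts use another build, so none of its gene coordinates are printed.

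The test was edgeR 4.0.16 in R 4.3.3 (filterByExpr, TMM scaling, robust quasi-likelihood fit), with Benjamini-Hochberg adjustment over all genes tested and a threshold of 0.05. Standard errors were taken from the coefficient and its F statistic. Alternatives were other scalings and filters, DESeq2 1.42.0, limma-voom (limma 3.58.1), removal of a GC and length trend, and left-out clones. The fit was also run on simulated counts, and the outcome, including the power to find changes, is not reported here. The named genes were, among canonical members, the 5 of lowest p in each direction for P95H, the parental library and W33, the 3 highest and 3 lowest per length and 8 fixed genes, and then the paralogs from 1 CPM and up to 3 genes per other list. Members and lists were chosen with earlier results of these data known. RPL26, RPL27, RPS18, RPS3, RPS13, RPS25, RPL27A, RPLP2, RPS15A, RPS6 and RACK1 were named after their values were seen, outside that rule. Some genes are not reported here by name.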

Additional observations from a re-analysis of the deposited data

Results flagged for a closer look

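Among groups of 4 clones, a single clone stood far from the other 3 in 19 of the 98 groups looked at (named genes and the summed share, in WT and in P95H clones), by Dixon's gap test at the 95% level. Chance flags about 1 group in 20 where groups are independent and not chosen by their values. Here the groups share the same clones. RPL8, RPL9, RPL18, RPL28 and RPL35 were also named for their low p in W33, so their flags add no evidence. The number of flags is a description and was not tested against chance. In 17 of the 19 flagged groups the clone was W33, the highest of the WT clones. Its canonical members were RPL8 (3075 CPM), RPS19 (2002 CPM), RPL28 (1526 CPM), RPL18 (1425 CPM), RPL35 (758.3 CPM) and RPS15 (418 CPM). Lower in level were FAU (282.2 CPM), RPL9 (137.1 CPM), RPL12 (61.51 CPM), RPL39 (53.6 CPM) and RPS27 (22.06 CPM). The paralogs were RPL36AL (296.2 CPM), RPL22L1 (42.74 CPM) and RPL26L1 (39.99 CPM). Outside the family W33 stood apart in EIF3I (570.4 CPM), PES1 (250.9 CPM) and MRPL36 (74.32 CPM). The other 2 were RPS10, low in P15 at 10.16 CPM among P95H clones, and EIF2B3, low in W19 at 162.5 CPM among WT clones. RPL39L and the summed share of counts were not among them.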

How the results depend on the processing

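No paired analysis was possible because WT and P95H clones share no replicate number. The count of members called stayed at 0 for P95H against WT clones, for the parental library and for W19, W36, W42, P9, P15, P22 and P38 under every alternative run. For all of these comparisons they were RLE, upper quartile and member-free TMM scaling, no filter, 1 CPM in 4 libraries, DESeq2, limma-voom, a GC and length trend removed and each other clone left out, and for P95H against WT clones also the parental library counted as wild type. In W33, 25 members were called, 17 to 35 under other scalings, filters and tools, 7 with the GC and length trend removed, and 0 to 29 with 1 clone left out. Both values of 0 came from leaving out W36 or W42, when no gene at all was called. Over all genes, 2246 of 20636 were called in W33, and 764 with the trend removed. The other scalings, filters and tools called 2023 to 3605 genes, and leaving out 1 clone 0 to 3216. Of the paralogs, edgeR called 0, DESeq2 1 and limma-voom 1, in both cases RPL39L. Of the 5 translation lists, DESeq2 called 2 genes and edgeR 0, where DESeq2 called 1.44% of all genes and edgeR 0.0%. The median log2 difference of the members in P95H clones ran from -0.12 to 0.11 with 1 clone left out and was 0.08 with limma-voom, against a spread of 0.22 between clones of a group (0.14 without W33). Chosen after seeing the data were leaving out W33 and P22 together (median 0.10) and leaving out W33 with the trend removed (0.09). The summed share of P95H clones lay below that of WT clones over all 8 clones and above it without W33 or without P9. The spread between clones was 13.7% of the WT mean. Without W33 it was 7.997%, and the difference was 6.27%, of the mean of the other WT clones. Differences smaller than these spreads were not told apart from them.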
